A study of Homo sapiens with 3 samples.

Results

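Caco-2 cells given polydatin together with dextran sulfate sodium (DSS) were compared with Caco-2 cells given DSS alone, across every gene with at least 20 counts in either library. Of 60664 gene identifiers in the count table, 14317 met that minimum, and 12094 of these are protein-coding. Caco-2 is a human colon carcinoma line that forms an enterocyte-like layer in culture. Cells of wild-type genotype were used in all groups. The DSS group received 3% DSS for 8 h. The DSS with polydatin group received 30 µM polydatin for 2 h, and then polydatin and 3% DSS together for 8 h. Untreated control cells form the third group, and their values are given for context. There was no library with polydatin and without DSS among those analysed here, and cells given erastin or Fer-1 were not analysed here. Each group was 1 library, so nothing measures the spread between cultures, and each ratio below compares 2 libraries rather than 2 conditions. The intervals in parentheses are exact 95% intervals on the counts and cover counting error only.

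DSS is a sulfated polysaccharide that injures the intestinal epithelium and is widely used to provoke colitis in rodents. Polydatin is the glucoside of resveratrol, a plant stilbene. The series' title names ferroptosis and the genes for NRF2, SLC7A11 and GPX4 as what polydatin was studied for. Ferroptosis is an iron-dependent cell death driven by lipid peroxides. The transcription factor NRF2, encoded by NFE2L2, is held down by KEAP1 and, when released, switches on genes for glutathione synthesis, NADPH supply and detoxification. SLC7A11 imports the cystine from which glutathione is made, and GPX4 uses glutathione to reduce lipid peroxides. SLC7A11 is also a target of ATF4, the central transcription factor of the integrated stress response, which answers amino acid shortage and endoplasmic reticulum stress.

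The totals were 18825914 counts for DSS, 16667622 for DSS with polydatin and 18695613 for control. The genes compared held 99.71% of the counts with polydatin and 99.76% of those with DSS alone. Levels are given as scaled counts-per-million (CPM) after trimmed mean of M-values (TMM) scaling of the library totals, and they are compared between libraries, not between genes. The markers of intestinal epithelium summed to 9250 CPM in DSS, 7480 with polydatin and 7670 in control over 10 genes, and KRT20 was near 0 with 9, 8 and 10 counts. Fibroblast markers summed to 55 CPM in DSS, 61.4 with polydatin and 68.2 in control, mostly from COL1A1, while COL1A2 and DCN had at most 3 counts in any library. Leukocyte markers summed to 10.4 CPM in DSS, 9.69 with polydatin and 5.51 in control over 6 genes, with PTPRC at 0 in all libraries and CD14, LYZ and CSF1R at 39 to 84 counts in the DSS and polydatin libraries. Endothelial markers summed to 17.4, 13.5 and 24.9 CPM over 4 genes, mostly from PECAM1 with 297, 166 and 443 counts, while KDR was at 0. Neuronal markers summed to 7.34, 7.11 and 8.76 CPM over 3 genes, nearly all from SYT1. The part of these markers in the results was not tested. In a bulk library, fewer cells of a kind and less RNA per cell cannot be told apart.

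Polydatin with DSS was higher than DSS alone by at least 1.5-fold, with an interval excluding 1, for 778 genes (5.43% of those compared), and lower by as much for 377 (2.63%). These are the genes called higher and lower below, and together they made up 8.07% of the genes. Each count of called members in a list or family below is to be read beside these shares over all genes. At 2-fold the counts were 268 higher (1.87%) and 61 lower (0.426%). Most genes were close: 60.2% lay within 1.2-fold, and the ratio ran from 0.699 at the 5th percentile to 1.61 at the 95th. The median log2 ratio over all genes was −0.02, with 6870 genes above 0 and 7447 below. Counting error is small at this depth, and the interval excluded 1 for 47.3% of genes whatever the size of their difference.

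**Figure D1:**
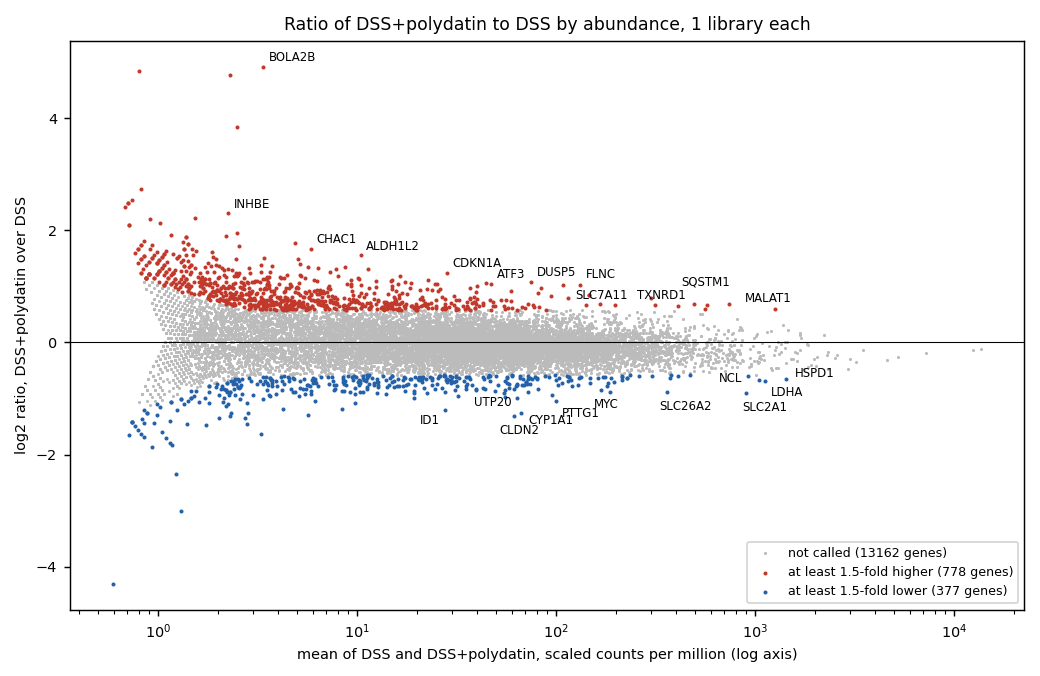
Log2 ratio of DSS+polydatin over DSS for each of the 14317 genes (vertical axis) against its mean scaled CPM in the 2 libraries (horizontal log axis), with 778 genes called higher in red, 377 called lower in blue and the rest in grey. Red points crowd the left side, at low abundance, while the abundant genes that were called lower include SLC2A1, HSPD1, NCL and LDHA.

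The higher calls were concentrated in genes of low abundance and high GC content. In the 10% of genes with the lowest abundance (mean up to 1.86 CPM) the median log2 ratio was 0.18, with 12.8% of genes called higher and 3.21% lower. In the 10% with the highest (above 151 CPM) the median was −0.11, with 0.698% higher and 1.89% lower. Among protein-coding genes, the 20% with the most GC in their transcripts (58.2% to 73.9%) had a median of 0.14 with 9.35% higher and 1.24% lower. The 20% with the least GC (up to 40.8%) had a median of −0.08 with 2.52% higher and 2.32% lower. The GC difference was present among the more abundant protein-coding genes (medians 0.04 and −0.08) and among the less abundant ones (0.20 and −0.06). Chromosomes 19 and 22 had 77 higher against 13 lower of 980 genes, and 30 against 5 of 360. With a minimum of 10 CPM the calls were 233 higher and 220 lower, so the excess of higher calls, 67.4% of all calls in the main setting, became 51.4%. With totals in place of TMM scaling all log2 ratios moved up by 0.09, and the calls were 1092 higher and 230 lower, or 82.6% higher. Without the smooth trend on GC content and length they were 626 and 413, or 60.3% higher. The part of these trends in any single gene's ratio was not tested, so the abundance and the GC content of the main gene lists are given beside them. Among the genes named below, total-count scaling ended the calls of APOB, ATP5MC1, CCT5, CDX2, ENO1, HNRNPR, HSPD1, LRIG1, MCM6, MRPL1, MT2A, RPL41P1, SLC39A10, SNHG3, SRM, VARS1 and VIM, all called lower. Removing the GC and length trend ended those of CCT5, CLDN3, ERN1, MLXIPL, MRPL1, NUAK2, S100A3, SLC16A3 and SQSTM1.

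**Figure D2:**
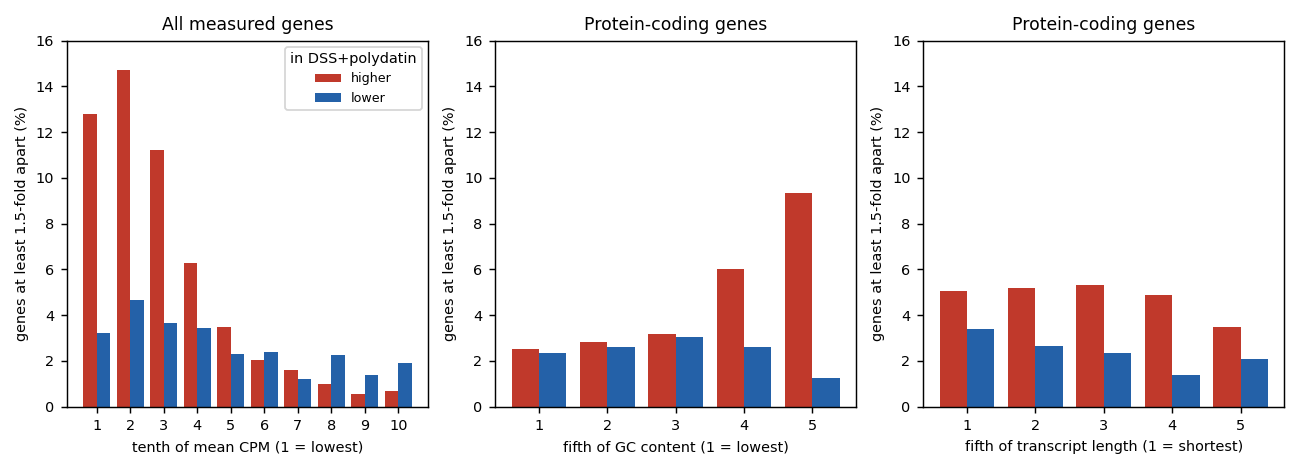
Percent of genes called higher (red) or lower (blue) in DSS+polydatin than in DSS, in 10 equal classes of mean abundance over all 14317 genes (left), and in 5 classes of transcript GC content (middle) and of transcript length (right) over protein-coding genes. The share called higher drops from 12.8% in the lowest class of abundance to 0.698% in the highest and climbs with GC content from 2.52% to 9.35%.

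The 3 genes of the series' title and KEAP1 are given first. SLC7A11 (chr4:138164097-138242349, GRCh38) stood at 227 CPM in control, 83.6 in DSS and 145 with polydatin. The level with polydatin lay between the other two, 1.74 times that of DSS alone (1.63 to 1.85). GPX4 (chr19:1103926-1106791) was at 124 CPM in control, 111 in DSS and 124 with polydatin, a ratio of 1.12 (1.05 to 1.19) that was not called. The log2 ratio of GPX4, 0.16, fell to 0.04 without the GC and length trend and rose to 0.25 with total-count scaling. NFE2L2 (chr2:177227595-177392697) was at 151 CPM in control, 198 in DSS and 214 with polydatin, 1.08 times DSS alone (1.03 to 1.13). KEAP1 (chr19:10486120-10503741) was also at 1.08 times (0.997 to 1.16), a log2 ratio that turned to −0.05 without the GC and length trend. Of the 4, SLC7A11 alone passed the 1.5-fold mark in these libraries.

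Of the targets of NRF2, 9 were called higher with polydatin and none lower. They were 27.3% of the 33 targets compared, of 36 listed, against 5.43% of all genes. The median log2 ratio was 0.26, with 24 above 0 and 9 below. The list had a median abundance of 146 CPM and a median GC content of 52.1%, and its median was 0.34 with total-count scaling and 0.23 without the GC and length trend. OSGIN1, an oxidative stress growth inhibitor, had 59 counts in control, 187 in DSS and 399 with polydatin, 2.27 times DSS alone (1.90 to 2.71). ABCC3, an efflux pump for glucuronide conjugates, went from 80.2 CPM in control to 104 in DSS and 187 with polydatin, a ratio of 1.79 (1.69 to 1.90). In both genes the library with polydatin was the highest of the 3. AKR1C1, an aldo-keto reductase, was at 26.1, 219 and 380 CPM, 1.73 times DSS alone (1.67 to 1.80), and its near-identical neighbour AKR1C2, outside the naming rule, at 1.59 times (1.53 to 1.65), so how reads divide between them is uncertain. TXNRD1, the cytosolic thioredoxin reductase, was at 264, 379 and 611 CPM, a ratio of 1.61 (1.57 to 1.66). GCLM, the modifier subunit of the enzyme that starts glutathione synthesis, was at 40.5, 58.9 and 93.8 CPM, a ratio of 1.59 (1.47 to 1.72). SQSTM1, the autophagy adaptor that binds KEAP1, was at 163, 442 and 704 CPM, 1.59 times DSS alone (1.55 to 1.64) (a log2 ratio of 0.55 without the GC and length trend). TRIM16L, also outside the rule, at 1.53 times (1.30 to 1.80), completes the 9 with SLC7A11. Other familiar targets, chosen after their values were seen, did not pass: NQO1 was at 0.907 times DSS alone (0.883 to 0.931) and HMOX1, heme oxygenase 1, at 1.14 times (0.999 to 1.30).

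NRF2 binds the antioxidant response element, whose core TGACNNNGC was searched on both strands of the RefSeq promoters of GRCh38.p14 (250 bases before to 50 after the gene start). It was found in 7 of 25 NRF2 target promoters (28%) and in 15.3% of 10489 promoters of the genes compared. Among genes called higher the share was 17.2% of 487, and among those called lower 8.03% of 249. A match is a description of letters, not of binding. Each gene was represented by the first promoter entry for its symbol, so a printed window need not be the start used in these cells. The promoters of TXNRD1 and GCLM are shown because both genes were called higher and hold a match, which the capitals mark on either strand.
TXNRD1, chr12:104215529-104215828, plus strand: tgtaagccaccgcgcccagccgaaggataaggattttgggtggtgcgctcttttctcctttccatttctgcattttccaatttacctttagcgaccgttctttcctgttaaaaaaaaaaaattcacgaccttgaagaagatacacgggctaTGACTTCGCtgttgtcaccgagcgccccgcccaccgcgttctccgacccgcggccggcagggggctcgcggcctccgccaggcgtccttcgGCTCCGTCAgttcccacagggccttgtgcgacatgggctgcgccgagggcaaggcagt
GCLM, chr1:93909381-93909680, minus strand: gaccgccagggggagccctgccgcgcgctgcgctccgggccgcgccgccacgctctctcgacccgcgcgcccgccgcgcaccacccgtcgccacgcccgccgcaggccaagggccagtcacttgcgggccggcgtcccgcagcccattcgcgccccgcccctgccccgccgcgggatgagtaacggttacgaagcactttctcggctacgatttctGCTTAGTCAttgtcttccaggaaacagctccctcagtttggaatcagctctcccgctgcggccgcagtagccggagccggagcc
Counted from the gene start, the matches began at positions −99 and −8 in TXNRD1 and −34 in GCLM.

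In the glutathione list the called genes included cystine import and the first step of synthesis. Over 24 genes compared the median log2 ratio was 0.06, with 5 called higher (20.8%, against 5.43% of all genes) and none lower. These were SLC7A11, GCLM, CHAC1, GPX8 and OPLAH, of which GPX8 (1.75 times, 1.29 to 2.37) and OPLAH, the 5-oxoprolinase of glutathione recycling (1.55 times, 1.28 to 1.87), fall outside the naming rule. CHAC1, which cleaves glutathione and is a target of the integrated stress response, had 205 counts in control, 52 in DSS and 156 with polydatin, 3.19 times DSS alone (2.32 to 4.45). GCLC, the catalytic partner of GCLM, was at 1.41 times (1.34 to 1.48) and GSR, glutathione reductase, at 0.978 times (0.915 to 1.04), both named after their values were seen.

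Genes listed for ferroptosis outside GPX4 moved in no common direction. Of 16 defence genes 1 was called higher, TXNRD1, and 1 lower, with a median of −0.11. The lower one was DHODH, the dehydrogenase of pyrimidine synthesis that keeps mitochondrial ubiquinone reduced, with 232 counts in control, 183 in DSS and 95 with polydatin, 0.552 times DSS alone (0.426 to 0.711). AIFM2, encoding ferroptosis suppressor protein, was at 1.01 times (0.905 to 1.12), a gene named after its value was seen. Of 21 genes listed as promoting ferroptosis 4 were called higher and 1 lower, with a median of 0.17 (0.06 without the GC and length trend). Whether each member promotes ferroptosis in these cells was not tested. CHAC1, given above, was among the higher ones. SAT1, which acetylates spermidine and spermine, was at 1.61 times DSS alone (1.52 to 1.69). ACSL1, a long-chain acyl-CoA synthetase, was at 1.68 times (1.38 to 2.04), and PTGS2, cyclooxygenase 2, at 1.56 times (1.42 to 1.72). The lower one was NOX1, the NADPH oxidase of colon epithelium, at 54.4 CPM in control, 63.3 in DSS and 34.8 with polydatin, a ratio of 0.549 (0.497 to 0.607). Iron genes had a median of −0.06 over 24 (0.02 with total-count scaling) and none called higher. The ferritin genes FTH1 and FTL, chosen after their values were seen, were both at 1.17 times DSS alone (1.14 to 1.19 and 1.15 to 1.19), and TFRC, the transferrin receptor, at 0.727 times (0.713 to 0.740).

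The integrated stress response list had one of the highest medians of the 55 lists. All 20 members compared of 23 listed were above 0, the median log2 ratio was 0.57, and 10 were called higher (50%) and none lower. The list's median abundance was 23.4 CPM and its median GC content 54.6%. With total-count scaling 12 members were called, with a minimum of 10 CPM 7, and without the GC and length trend 6. INHBE, an activin subunit gene, had 129 counts in control, 14 in DSS and 65 with polydatin, 4.93 times DSS alone (2.74 to 9.52). VLDLR, a lipoprotein receptor, was at 17 CPM in control, 6.48 in DSS and 16.1 with polydatin, 2.48 times DSS alone (1.99 to 3.10). These genes and CHAC1 were lowest in DSS, with polydatin and control closer to each other. ATF3, a stress transcription factor, followed another order, with 14.4 CPM in control, 30.7 in DSS and 63.7 with polydatin, a ratio of 2.07 (1.87 to 2.30). The other called members, chosen after their values were seen, likewise followed these orders. PCK2 (1.65 times), DDIT4 (1.53 times), ASNS (2.18 times) and CEBPB (1.51 times) were lowest in DSS, while TRIB3 (1.59 times) and CREB5 (1.96 times) were highest with polydatin and lowest in control. ATF4 itself, named after its value was seen, was at 532 CPM in control, 441 in DSS and 544 with polydatin, 1.23 times DSS alone (1.2 to 1.27), and was not called. Ratios to DSS alone and any drop from control to DSS share the DSS library, so the 2 are not independent.

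The element that ATF4 and its partners bind was searched as TGATGNAA on both strands. It was found in 3 of 18 integrated stress response promoters (16.7%) and in 1.70% of all promoters, with 3.90% among genes called higher and 1.2% among those called lower. CHAC1 and ATF3 are shown as members called higher with a match, in capitals.
CHAC1, chr15:40953221-40953520, plus strand: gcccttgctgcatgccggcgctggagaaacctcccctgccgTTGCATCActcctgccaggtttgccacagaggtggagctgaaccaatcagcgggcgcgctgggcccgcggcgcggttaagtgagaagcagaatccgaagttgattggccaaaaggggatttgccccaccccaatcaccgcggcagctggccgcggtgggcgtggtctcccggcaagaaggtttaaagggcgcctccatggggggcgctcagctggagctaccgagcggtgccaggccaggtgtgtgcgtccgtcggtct
ATF3, chr1:212565157-212565456, plus strand: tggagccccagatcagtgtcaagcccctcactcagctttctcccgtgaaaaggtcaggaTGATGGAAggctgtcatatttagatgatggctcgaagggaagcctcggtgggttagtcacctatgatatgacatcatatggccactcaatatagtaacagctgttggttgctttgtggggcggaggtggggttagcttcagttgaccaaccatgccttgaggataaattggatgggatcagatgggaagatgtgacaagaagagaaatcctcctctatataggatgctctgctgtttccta
The match began at position −209 from the gene start in CHAC1 and −191 in ATF3.

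Amino acid supply showed a few large differences in lists that otherwise sat near 0. Of 23 amino acid transporters 4 were called higher (17.4%, against 5.43% of all genes) and none lower, with a median of 0.09. SLC1A4, a transporter of neutral amino acids, was at 38.8 CPM in control, 14.4 in DSS and 31.2 with polydatin, 2.16 times DSS alone (1.87 to 2.52). SLC6A9, a glycine transporter, was at 15.5, 14.2 and 27.1 CPM, 1.91 times (1.64 to 2.23). SLC43A1, a large neutral amino acid transporter named after its value was seen, had 84, 27 and 50 counts (1.97 times, 1.21 to 3.27), and SLC7A11 was the other. The abundant transporter SLC7A5, also chosen later, was at 0.874 times (0.823 to 0.927). In serine synthesis and folate metabolism 1 of 17 genes was called, ALDH1L2, the mitochondrial formyltetrahydrofolate dehydrogenase. It was at 19.9 CPM in control, 5.29 in DSS and 15.6 with polydatin, 2.95 times DSS alone (2.33 to 3.75). The list's median was −0.04 and turned to 0.05 with total-count scaling. PHGDH, PSAT1 and MTHFD2 of the same list, chosen after their values were seen, were at 1.16 times (1.10 to 1.23), 1.21 times (1.12 to 1.31) and 1.46 times (1.40 to 1.51). Each stayed below its control level, as PHGDH shows with 374 CPM in control, 136 in DSS and 158 with polydatin. Among cytosolic aminoacyl-tRNA synthetases none was called higher and 2 of 20 lower, FARSB (0.588 times, 0.549 to 0.629) and VARS1 (0.636 times, 0.587 to 0.689), with a median of −0.07 that became 0.01 with total-count scaling. The endoplasmic reticulum chaperone list had a median of 0.07 over 21 genes (−0.02 without the GC and length trend), and 1 was called higher, the stress sensor ERN1 at 1.56 times (1.36 to 1.79).

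Ribosome biogenesis had the lowest median of all lists, with every member compared below 0. The median log2 ratio was −0.54 over 34 of 35 listed genes, and 15 were called lower (44.1%, against 2.63% of all genes) and none higher. Median abundance was 71.7 CPM and median GC content 48.4%, and with total-count scaling 8 were called lower, without the GC and length trend 16. UTP20, a component of the small subunit processome, was at 103 CPM in control, 93.3 in DSS and 50.6 with polydatin, 0.543 times DSS alone (0.5 to 0.589). NOP16, a nucleolar protein of large subunit assembly, was at 47.9, 50.7 and 28.1 CPM, 0.554 times (0.496 to 0.618). RRS1, a regulator of ribosome synthesis, had 252, 244 and 109 counts, 0.475 times (0.375 to 0.597). In these 3 genes control and DSS were close and the library with polydatin stood below both. Among the called members outside the naming rule were NCL, nucleolin, at 0.625 times (0.612 to 0.639), DKC1, dyskerin, at 0.592 times (0.557 to 0.629), NOP56 at 0.629 times (0.601 to 0.659) and the RNA polymerase I subunit POLR1B at 0.642 times (0.591 to 0.698). WDR3, a small subunit processome protein outside the list, was among the 15 lowest protein-coding genes, at 94 CPM in control, 71.7 in DSS and 38.1 with polydatin (0.532 times, 0.484 to 0.584). Together the 35 listed genes took 0.836% of control counts (0.832 to 0.841), 0.680% of DSS counts (0.677 to 0.684) and 0.503% of counts with polydatin (0.5 to 0.507).

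The E-box CACGTG, a site of MYC with MAX and of related factors, was found in 9 of 28 ribosome biogenesis promoters (32.1%) and in 9.97% of all promoters. Its share was 22.1% of the 249 promoters of genes called lower and 6.16% of the 487 of genes called higher. UTP20 and WDR43, a nucleolar protein of the small subunit processome, are shown because both were called lower and hold the motif near the gene start, in capitals.
UTP20, chr12:101279855-101280154, plus strand: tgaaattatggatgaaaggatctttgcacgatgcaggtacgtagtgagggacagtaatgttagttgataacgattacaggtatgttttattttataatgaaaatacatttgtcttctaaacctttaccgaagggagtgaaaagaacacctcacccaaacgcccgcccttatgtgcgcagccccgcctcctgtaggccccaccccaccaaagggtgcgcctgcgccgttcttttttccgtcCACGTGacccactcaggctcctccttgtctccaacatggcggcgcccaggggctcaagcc
WDR43, chr2:28894417-28894716, plus strand: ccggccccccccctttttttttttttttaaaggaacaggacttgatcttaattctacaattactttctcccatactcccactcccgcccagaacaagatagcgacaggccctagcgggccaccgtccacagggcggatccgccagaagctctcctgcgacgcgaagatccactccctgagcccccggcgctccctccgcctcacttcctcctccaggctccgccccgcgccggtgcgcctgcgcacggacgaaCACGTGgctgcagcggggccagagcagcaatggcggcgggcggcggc
From the gene start, the motif began at position −10 in UTP20 and 4 in WDR43.

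Genes of the ribosome itself gave no call. Of 83 cytosolic ribosomal protein genes compared, 81 were below 0 and 2 above, with a median of −0.27 and a range from −0.52 to 0.09, and none was called. RPS3 was at 2950 CPM in control, 2770 in DSS and 2290 with polydatin, 0.827 times DSS alone (0.816 to 0.838), and RPS2 at 0.837 times (0.825 to 0.850). Their summed share was 5.65% of control counts, 5.41% of DSS counts and 4.80% with polydatin. Translation initiation factors had a median of −0.21 over 33, with 1 called lower, EIF5A, the hypusine-carrying factor, at 264 CPM in control, 227 in DSS and 138 with polydatin (0.608 times, 0.578 to 0.640). Splicing factors of the SR and hnRNP families had a median of −0.32 over 31, with 28 below 0 and 1 called, HNRNPR at 0.662 times (0.635 to 0.690). This list is abundant (median 298 CPM) and low in GC content (median 40.7%). Housekeeping genes, for comparison, had a median of −0.15 over 26, with 21 below 0, and GAPDH was at 0.854 times (0.843 to 0.865). The 10% of genes with the highest abundance had a median of −0.11, as given above.

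The heat shock and folding list had a median of −0.46 over 29, with 25 below 0, 6 called lower (20.7%) and none higher, and with total-count scaling 1 was called. The mitochondrial chaperonin genes HSPD1 and HSPE1, which share a promoter region on chromosome 2 and overlap in the annotation, were at 0.636 times (0.624 to 0.647) and 0.595 times (0.530 to 0.667). HSPD1 was at 2540 CPM in control, 1740 in DSS and 1110 with polydatin. CCT5, a subunit of the cytosolic chaperonin, was at 0.657 times (0.635 to 0.679). HSP90AA1 and HSP90AB1, chosen after their values were seen, were at 0.711 times (0.698 to 0.725) and 0.722 times (0.712 to 0.732), while the stress-inducible HSPA1A was at 0.978 times (0.912 to 1.05) and DNAJB1 at 1.00 times (0.945 to 1.07). Proteasome subunits had a median of −0.20, with 30 of 31 below 0 and none called, and PSMA7 was at 0.834 times (0.804 to 0.864). Autophagy and lysosome genes had a median of 0.17 over 29, 24 above 0 and only SQSTM1 called.

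**Figure D3:**
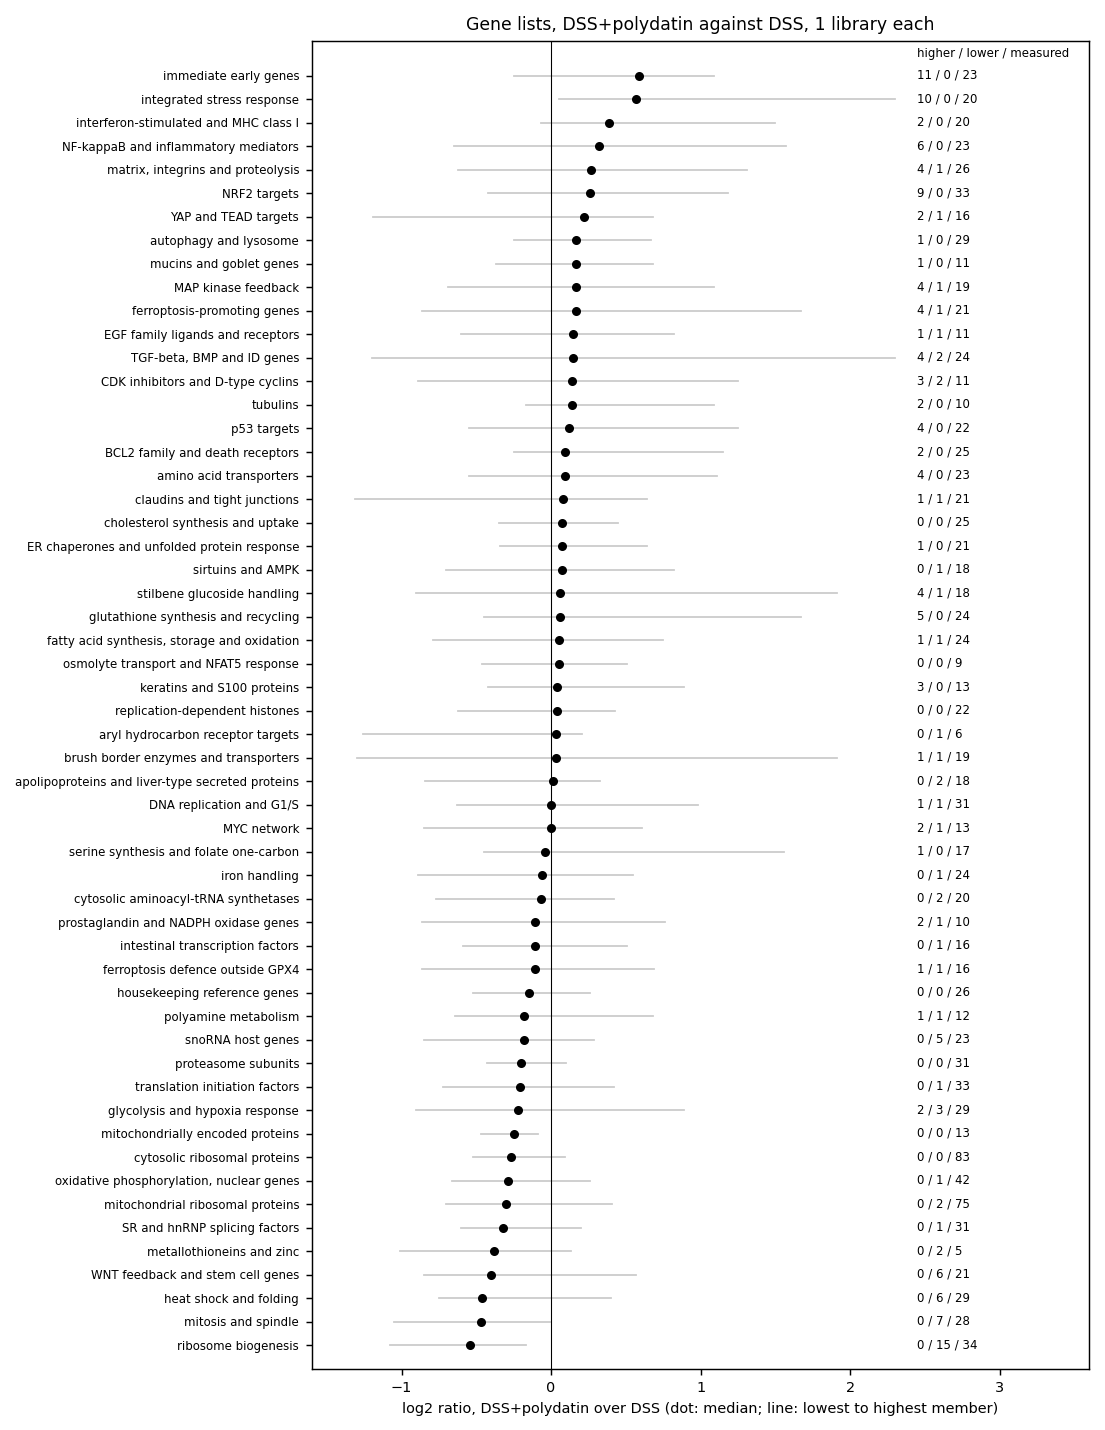
Median log2 ratio of DSS+polydatin over DSS for each of 55 gene lists (dots), with lines from the lowest to the highest member and, at the right, how many members were called higher, called lower and compared. Immediate early genes (0.59) and the integrated stress response (0.57) stand at the top, mitosis (−0.47) and ribosome biogenesis (−0.54) at the bottom, and lists are ordered by median.

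Mitochondrial gene sets had medians below 0, but their shares of genes called lower were close to or below the 2.63% over all genes. Mitochondrial ribosomal proteins had a median of −0.30 over 75 of 78 genes, with 68 below 0 and 2 called lower (2.67%), MRPL24 (0.621 times, 0.549 to 0.701) and MRPL1 (0.630 times, 0.553 to 0.717). Nuclear genes of oxidative phosphorylation had a median of −0.29 over 42, with 39 below 0 and 1 called (2.38%), ATP5MC1, a subunit of the ATP synthase ring, at 86.1 CPM in control, 53.2 in DSS and 33.7 with polydatin (0.633 times, 0.570 to 0.701). The 13 protein genes of the mitochondrial genome were all below 0, with a median of −0.25 and none called. MT-CO1 was at 0.910 times (0.905 to 0.915) and MT-ND4 at 0.880 times (0.873 to 0.887). Mitochondrially encoded transcripts took 5.31% of control counts, 4.77% of DSS counts and 4.34% with polydatin.

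In the glycolysis and hypoxia list 3 genes were called lower and 2 higher of 29, with a median of −0.22. SLC2A1, the basal glucose transporter, was at 672 CPM in control, 1170 in DSS and 629 with polydatin, 0.536 times DSS alone (0.524 to 0.548). LDHA, lactate dehydrogenase A, was at 929, 1390 and 862 CPM, 0.620 times (0.607 to 0.632), and ENO1, the main enolase, was at 0.664 times (0.650 to 0.679). In these genes the DSS library was the highest of the 3. ENO2, the second enolase gene, was one of the higher ones at 11.1, 27.6 and 51.3 CPM (1.86 times, 1.67 to 2.08), and SLC16A3, a lactate exporter, was the other at 1.5 times (1.33 to 1.70), just past the mark. VEGFA, chosen after its value was seen, was at 1.21 times (1.17 to 1.24). RPIA, ribose-5-phosphate isomerase of the pentose phosphate pathway, was among the 15 lowest genes at 57.5, 42.5 and 22 CPM (0.517 times, 0.456 to 0.585).

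Lipid genes differed little. Of 25 cholesterol synthesis and uptake genes none was called, and the median was 0.07. HMGCS1 was at 1.04 times DSS alone (1.01 to 1.06). Of 24 fatty acid genes ACSL1 was the one called higher, and the median was 0.05 (−0.03 without the GC and length trend). In polyamine metabolism SAT1 was called higher and SRM, spermidine synthase, lower at 0.640 times (0.545 to 0.750), with a median of −0.18 over 12.

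Of the mitotic genes, 7 of 28 compared were called lower (25%) and none higher, with 30 listed. The median log2 ratio was −0.47 and the highest −0.01, a value that total-count scaling moves above 0. The list had a median abundance of 93.5 CPM and a median GC content of 43.8%. PTTG1, securin, was at 215 CPM in control, 135 in DSS and 65.1 with polydatin, 0.484 times DSS alone (0.451 to 0.520). CDC20, which activates the anaphase-promoting complex, was at 121, 84.6 and 42.3 CPM, 0.5 times (0.457 to 0.546). KIF20A, a kinesin of cytokinesis, was at 210, 125 and 65.4 CPM, 0.521 times (0.485 to 0.560). The kinases PLK1 and AURKA were at 0.507 times (0.461 to 0.557) and 0.543 times (0.516 to 0.571). In these 5 genes control was highest and the library with polydatin lowest. The difference was not even across the list: CCNB1 was called at 0.586 times (0.557 to 0.617), while CDK1 was at 0.935 times (0.898 to 0.974), FOXM1 at 0.992 times (0.949 to 1.04) and AURKB at 0.942 times (0.858 to 1.03), these 4 chosen after their values were seen.

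The cell cycle homology region TTTGAA, found in promoters switched on late in the cycle, was present in 13 of 22 mitosis promoters (59.1%) and in 9.88% of all promoters. It was in 13.3% of promoters of genes called lower and 11.9% of those of genes called higher. CDC20 and PLK1 are shown with it in capitals, on either strand.
CDC20, chr1:43358731-43359030, plus strand: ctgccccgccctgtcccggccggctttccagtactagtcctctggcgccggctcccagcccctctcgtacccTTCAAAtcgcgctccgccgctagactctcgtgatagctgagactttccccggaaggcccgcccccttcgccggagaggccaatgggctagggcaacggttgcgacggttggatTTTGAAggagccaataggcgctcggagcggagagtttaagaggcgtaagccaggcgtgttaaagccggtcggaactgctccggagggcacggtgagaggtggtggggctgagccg
PLK1, chr16:23678639-23678938, plus strand: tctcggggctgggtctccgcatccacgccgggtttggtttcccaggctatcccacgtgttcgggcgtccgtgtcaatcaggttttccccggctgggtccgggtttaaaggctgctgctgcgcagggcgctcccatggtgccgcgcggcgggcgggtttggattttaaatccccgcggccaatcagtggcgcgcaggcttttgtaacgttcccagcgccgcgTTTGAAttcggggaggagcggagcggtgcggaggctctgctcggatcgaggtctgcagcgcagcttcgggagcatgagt
The matches began at positions −178 and −65 from the gene start in CDC20 and −29 in PLK1.

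DNA replication genes did not share the direction of the mitotic genes, with a median of 0.00 over 31, 16 above 0 and 15 below. The licensing factor CDT1 was called higher, at 34.3 CPM in control, 25 in DSS and 49.2 with polydatin (1.97 times, 1.76 to 2.21). MCM6, a subunit of the replicative helicase, was called lower at 0.646 times (0.617 to 0.675). None of 22 histone genes compared was called. Among inhibitors of cyclin-dependent kinases, CDKN1A, encoding p21, had 64 counts in control, 309 in DSS and 690 with polydatin, 2.37 times DSS alone (2.07 to 2.72). CDKN2B had 21, 120 and 214 counts, 1.89 times (1.51 to 2.39), and CDKN1C 66, 101 and 161 counts, 1.69 times (1.31 to 2.19). All 3 inhibitors were highest with polydatin and lowest in control. In the same list CCND2, a D-type cyclin, was at 0.541 times (0.387 to 0.748) and CDKN3, a phosphatase gene, at 0.603 times (0.531 to 0.684). Of 22 p53 targets 4 were called higher (18.2%, against 5.43% of all genes) and none lower, with a median of 0.12. They were CDKN1A, GDF15, a stress-secreted factor, at 8.98, 56.5 and 111 CPM (1.97 times, 1.82 to 2.12), BBC3, encoding the death protein PUMA, with 37, 48 and 100 counts (2.21 times, 1.55 to 3.19), and PHLDA3, outside the naming rule, at 1.71 times (1.36 to 2.15). MDM2 and BAX, chosen after their values were seen, were at 1.22 times (1.14 to 1.29) and 1.05 times (0.941 to 1.17).

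MYC, the growth-promoting transcription factor, was at 163 CPM in control, 217 in DSS and 120 with polydatin, 0.555 times DSS alone (0.527 to 0.586). In the list of its partners and antagonists the median was −0.00 over 13, and MXD1, an antagonist of MYC, was called higher at 1.53 times (1.37 to 1.70), as was MLXIPL at 1.5 times (1.27 to 1.78), a value at the mark. The list of stem cell genes and feedback genes of WNT signalling, which drives intestinal crypt growth, had a median of −0.40 over 21. In it 16 were below 0, none was called higher and 6 were called lower (28.6%). Besides MYC these were AXIN2, the scaffold of the beta-catenin destruction complex, at 38.5, 35.2 and 21.5 CPM (0.610 times, 0.536 to 0.694), LRIG1 at 0.659 times (0.604 to 0.719), and, outside the naming rule, NKD1, RNF43 and SP5 at 0.592, 0.648 and 0.649 times. In AXIN2 control and DSS were close and polydatin below both. With total-count scaling 3 members were called lower and 1 higher. The stem cell marker LGR5, chosen after its value was seen, was at 47.3, 77.5 and 55.6 CPM (0.717 times, 0.660 to 0.778).

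**Figure D4:**
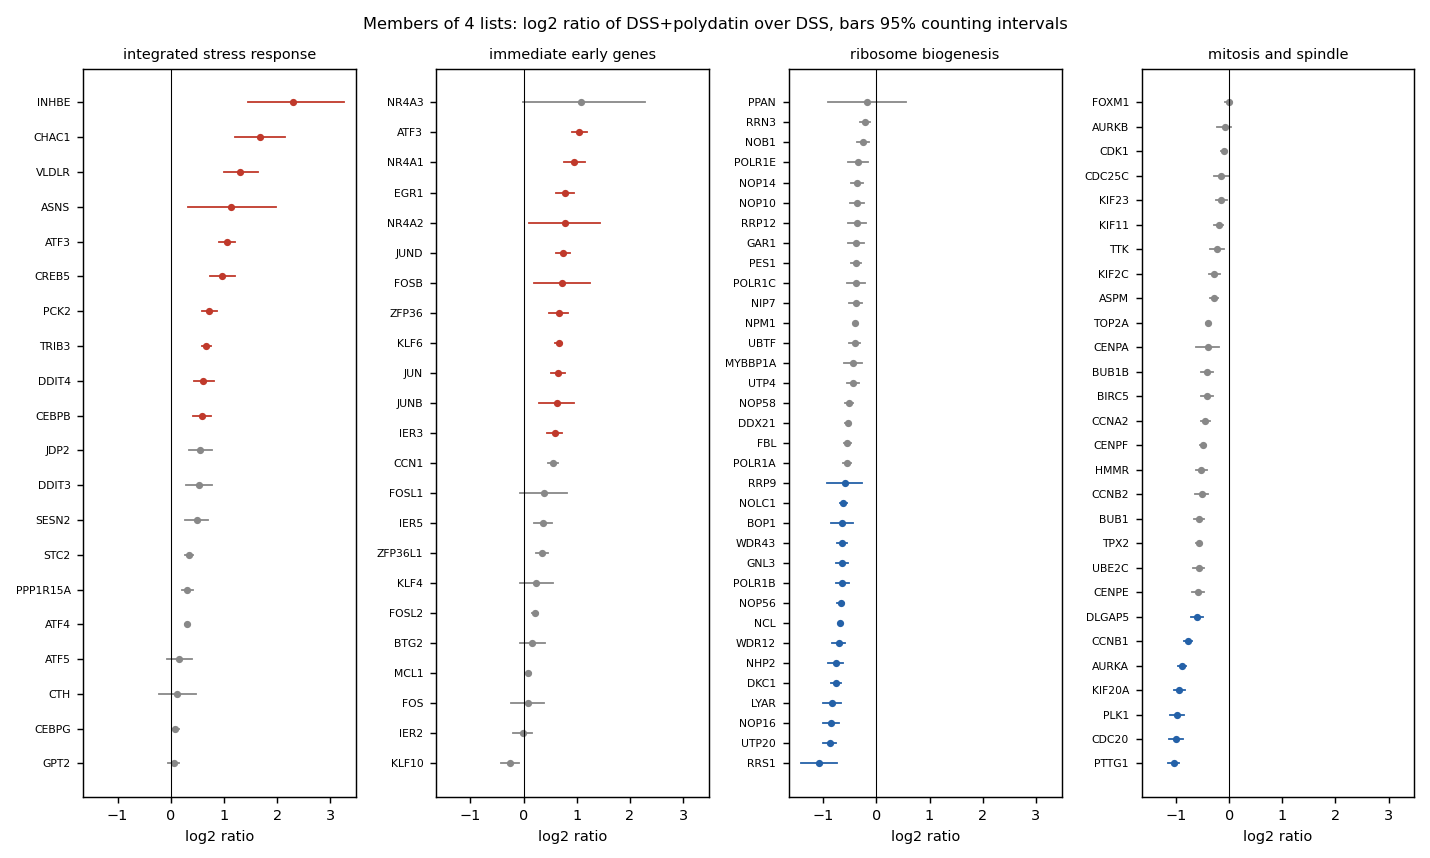
Log2 ratio of DSS+polydatin over DSS (horizontal axis) for each member compared of 4 lists, with 95% counting intervals as bars, called genes coloured and the rest grey. All members of the integrated stress response lie above 0 and all of ribosome biogenesis and mitosis below it. Immediate early genes lie mostly above 0, ATF3, NR4A1 and EGR1 among them, with KLF10 on the left.

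Immediate early genes, the first genes that signalling switches on, had the highest median of the 55 lists. It was 0.59 over 23 of 27 genes, with 21 above 0 and 11 called higher (47.8%), none lower. Median abundance was 31.7 CPM and median GC content 53.3%, and without the GC and length trend 7 were called, with a minimum of 10 CPM 9. Besides ATF3, NR4A1, an orphan nuclear receptor, was at 12.1 CPM in control, 17.8 in DSS and 34.5 with polydatin, 1.94 times DSS alone (1.69 to 2.22). EGR1, a zinc finger factor, had another order, with 69.2 CPM in control, 27 in DSS and 46.4 with polydatin, 1.72 times (1.53 to 1.92). The AP-1 genes JUN, JUNB, JUND and FOSB, chosen after their values were seen, were at 1.56, 1.54, 1.67 and 1.64 times. FOS was not higher at 1.06 times (0.849 to 1.31), nor was IER2 at 0.987 times (0.873 to 1.12). The AP-1 site TGANTCA was found in 1 of 17 promoters of the list (5.88%) and in 4.46% of all promoters, with 11.5% among genes called higher and 4.82% among those called lower.

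Phosphatases that switch off MAP kinases differed by member. DUSP5, which acts on ERK in the nucleus, was at 7.60 CPM in control, 48 in DSS and 102 with polydatin, 2.12 times DSS alone (1.96 to 2.30). DUSP8 and DUSP1, which act on the stress kinases, were at 1.95 times (1.59 to 2.41) and 1.89 times (1.73 to 2.07). DUSP6, the cytoplasmic ERK phosphatase, was lower at 61, 68.5 and 42.6 CPM (0.621 times, 0.566 to 0.680). The list had 4 called higher (21.1%, against 5.43% of all genes) and 1 lower of 19, with a median of 0.17. In the EGF family, the ligand HBEGF was called higher at 7.71, 22.1 and 39.2 CPM (1.77 times, 1.56 to 2.01), and the only other called member of 11 was LRIG1, a negative regulator of the receptors.

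Inflammatory genes were higher with polydatin than with DSS alone where they were called. The NF-kappaB list had a median of 0.32 over 23 of 29 genes, with 20 above 0. In it 6 genes were called higher (26.1%, against 5.43% of all genes) and none lower. The list's median abundance was 25.5 CPM and its median GC content 49.5%. With a minimum of 10 CPM 3 were called. BIRC3, an inhibitor of apoptosis, was at 15.1 CPM in control, 26.7 in DSS and 53.3 with polydatin, 2.00 times DSS alone (1.79 to 2.23). NFKB2, the precursor of the p52 subunit, was at 14.2, 26.9 and 46.7 CPM, 1.74 times (1.55 to 1.94). IL18, an epithelial cytokine, was at 25.2, 16.4 and 31.3 CPM, 1.91 times (1.66 to 2.21). The library with polydatin was the highest of the 3 in each of these genes. The other called members, RELB (1.85 times, 1.42 to 2.43), IL1A and CXCL8, fall outside the naming rule. CXCL8, a neutrophil chemokine, had 3 counts in control, 10 in DSS and 28 with polydatin, and IL1A 4, 19 and 43, so both rest on few reads. NFKBIA and TNFAIP3, the inhibitors that NF-kappaB itself switches on, were at 1.35 times (1.22 to 1.49) and 1.19 times (1.10 to 1.29), and CCL2 at 1.05 times (0.863 to 1.27), all chosen after their values were seen. TNFRSF9, a receptor of the TNF family, was among the 15 highest genes with 24, 67 and 158 counts (2.51 times, 1.87 to 3.39).

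An NF-kappaB site, written as GGGNN followed directly by TTTCC, was found in 9 of 17 promoters of this list (52.9%) and in 2.08% of all promoters. It was in 1.85% of the promoters of genes called higher and 1.2% of those of genes called lower. BIRC3 is shown as the called member with the match, in capitals on the reverse strand, from position −199 of the gene start.
BIRC3, chr11:102317234-102317533, plus strand: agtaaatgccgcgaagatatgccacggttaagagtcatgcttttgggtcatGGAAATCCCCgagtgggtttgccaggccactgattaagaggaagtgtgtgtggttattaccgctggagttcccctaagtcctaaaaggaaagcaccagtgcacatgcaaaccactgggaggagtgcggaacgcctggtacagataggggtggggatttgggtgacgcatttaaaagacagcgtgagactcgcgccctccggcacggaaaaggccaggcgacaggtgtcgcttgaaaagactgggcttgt

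Interferon-stimulated and class I genes had a median of 0.39 over 20 of 28, with 18 above 0 and 2 called higher, at a median abundance of 14.7 CPM. IRF7, the interferon regulatory factor, had 40 counts in control, 49 in DSS and 130 with polydatin, 2.82 times DSS alone (2.01 to 4.00). GBP2, a guanylate-binding protein, was at 2.70, 22.1 and 33.9 CPM, 1.54 times (1.35 to 1.75). B2M, the light chain of class I molecules, chosen after its value was seen, was at 1.09 times (1.05 to 1.15). In the prostaglandin and NADPH oxidase list, PTGS2 and PTGES, consecutive enzymes of prostaglandin E synthesis, were called higher, the latter at 1.70 times (1.29 to 2.25), and NOX1 lower.

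In the TGF-beta and BMP list the called genes went both ways, 4 higher and 2 lower of 24. ID1, a BMP target that inhibits differentiation factors, was at 98.2 CPM in control, 38.5 in DSS and 16.8 with polydatin, 0.436 times DSS alone (0.379 to 0.5). SMAD1, a signal transducer of BMP receptors, was at 36.3, 39.7 and 22 CPM, 0.554 times (0.488 to 0.627). GREM1, a secreted BMP antagonist, was at 7.21, 4.91 and 12.4 CPM, 2.53 times (1.97 to 3.27). GDF15 and INHBE were also called higher. ID2 and ID3, chosen after their values were seen, were at 0.869 times (0.813 to 0.928) and 1.15 times (0.719 to 1.83), so the other ID genes did not follow ID1. YAP and TEAD targets had a median of 0.22 over 16, with F3, tissue factor, and the kinase gene NUAK2 called higher at 1.61 times (1.41 to 1.83) and 1.55 times (1.37 to 1.76), and FJX1 lower with 96, 109 and 45 counts (0.439 times, 0.303 to 0.626).

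Resveratrol and other stilbenes are ligands of the aryl hydrocarbon receptor, and resveratrol is known as its antagonist. CYP1A1, the cytochrome most tightly driven by this receptor, was at 20.2 CPM in control, 93.5 in DSS and 39.2 with polydatin, 0.419 times DSS alone (0.383 to 0.458). The library with polydatin lay between control and DSS. The 5 other members compared, named to complete the list, were not called. AHR was at 1.15 times (1.06 to 1.26), TIPARP at 0.978 times (0.890 to 1.08), UGT1A6 at 1.07 times (1.03 to 1.11) and NQO1 at 0.907 times, and ARNT is the fifth. The core element TNGCGTG was in 2 of 6 promoters (33.3%) and in 7.43% of all promoters, with 6.37% among genes called higher and 10% among those called lower.

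Genes that take up, cleave, conjugate and export stilbene glucosides had a median of 0.06 over 18 of 26, with 4 called higher and 1 lower. SLC5A1, the sodium-coupled glucose transporter for which glucosides are candidate substrates, had 14 counts in control, 17 in DSS and 60 with polydatin, 3.75 times DSS alone (2.16 to 6.86). SULT1A2, a sulfotransferase nearly identical to SULT1A1, had 25, 23 and 46 counts (2.12 times, 1.26 to 3.67), so its reads are hard to assign. SULT2A1, named after its value was seen, was at 1.51 times (1.18 to 1.93), and ABCC3 was the other. The lower one was SLC2A1. Glucuronosyltransferases did not differ by as much, with UGT1A1, chosen after its value was seen, at 0.975 times (0.855 to 1.11), though genes of that locus share exons. Of the sirtuins and AMPK genes often named as resveratrol targets, 1 of 18 was called, the coactivator PPARGC1B, lower at 14.6, 18.5 and 11.4 CPM (0.616 times, 0.515 to 0.736). SIRT1 was at 0.949 times (0.877 to 1.03), a gene chosen after its value was seen.

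CLDN2, the pore-forming claudin of leaky tight junctions, was the lowest protein-coding gene by the naming rule. It was at 102 CPM in control, 87 in DSS and 35.1 with polydatin, 0.403 times DSS alone (0.367 to 0.443). Control and DSS lay close together and polydatin well below both. CLDN3, a sealing claudin, was called higher with 38, 159 and 233 counts (1.56 times, 1.27 to 1.92). The other 19 junction genes compared were not called, with CLDN4 at 1.46 times (1.40 to 1.52), OCLN at 1.23 times (1.16 to 1.30) and TJP1 at 1.04 times (1.01 to 1.09), chosen after their values were seen, and the list median was 0.08. Among brush border genes, MGAM2, a maltase-glucoamylase homologue, was called lower with 34, 149 and 57 counts (0.406 times, 0.294 to 0.555), and SLC5A1 higher. SI, sucrase-isomaltase, chosen after its value was seen, was at 47 CPM in control, 9.28 in DSS and 8.54 with polydatin, 0.920 times DSS alone (0.734 to 1.15). The brush border list had a median of 0.03 over 19 (−0.11 without the GC and length trend). CDX2, a master factor of intestinal identity, was at 147, 118 and 78.3 CPM, 0.665 times (0.621 to 0.712). HNF4A, the other large factor of the enterocyte, was at 0.686 times (0.662 to 0.710), below the mark for a call. Among the epithelial markers KRT8 and KRT18 were at 0.782 times (0.773 to 0.791) and 0.747 times (0.736 to 0.758), and they held most of the difference in the marker sum. CDH1 and CDH17 stood higher, at 738 against 698 CPM and 639 against 614 CPM, and none of these 4 was called. Of 18 apolipoprotein and liver-type secreted protein genes 2 were called lower (11.1%), APOB at 0.634 times (0.588 to 0.684) and AHSG at 0.559 times (0.452 to 0.689), while the list's median was 0.01 (−0.05 without the GC and length trend), with 10 above 0 and 8 below. SLC26A2, a sulfate transporter, was among the 15 lowest genes at 731, 468 and 252 CPM (0.539 times, 0.520 to 0.559).

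The matrix, integrin and proteolysis list had a median of 0.27 over 26, with 21 above 0, 4 called higher and 1 lower, and with a minimum of 100 counts or of 10 CPM 1 was called higher. LAMA3, a chain of laminin 332, was at 40.9 CPM in control, 56.9 in DSS and 105 with polydatin, 1.84 times DSS alone (1.70 to 1.99). ITGB6, the epithelial integrin that activates TGF-beta, had 14, 37 and 65 counts (1.87 times, 1.23 to 2.88). The lower one, VIM, had 73, 75 and 46 counts (0.652 times, 0.441 to 0.953). FLNC, an actin crosslinker, was the most abundant of the 15 highest genes, at 75.2, 87.4 and 177 CPM (2.03 times, 1.91 to 2.15). TUBA4A and TUBA1A, alpha tubulins, were at 2.12 times (1.79 to 2.52) and 1.62 times (1.41 to 1.87), with tubulin paralogs close in sequence. The keratin and S100 list had a median of 0.04 over 13, with 7 above 0 and 6 below, and with a minimum of 10 CPM its median was −0.07 and no gene was called. KRT80, S100P and S100A3 were called higher in it, at 1.86 times (1.38 to 2.52), 1.76 times (1.30 to 2.39) and 1.82 times (1.04 to 3.28), and MUC3A among the mucins at 1.60 times (1.36 to 1.88). Mucin and goblet genes had a median of 0.17 over 11 of 18, at a median abundance of 2.51 CPM, with MUC3A the single call. Metallothionein and zinc genes had 2 of 5 called lower, the zinc importer SLC39A10 at 0.655 times (0.622 to 0.689) and MT2A with 56, 32 and 15 counts (0.498 times, 0.251 to 0.947). Osmolyte genes, which answer salt and sugar stress, had a median of 0.05 over 9 and no call, with SLC5A3, the inositol transporter, at 1.24 times (1.22 to 1.27) and SLC38A2 at 1.15 times (1.12 to 1.17). Of 25 genes of the BCL2 family and death receptors 2 were called higher, BBC3 and BIRC3, and none lower, with a median of 0.09.

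The remaining genes at the extremes belong to no list. The highest ratio of all named genes was that of BOLA2B, with 3 counts in control, 4 in DSS and 114 with polydatin. Its near-identical copy BOLA2 had 0 counts in every library, so the assignment of reads between copies is uncertain and no biological change can be read from it. HDAC9, a class IIa histone deacetylase, had 17, 33 and 88 counts (2.83 times, 1.88 to 4.37). TMEM140 had 19, 53 and 131 counts (2.63 times, 1.89 to 3.69). SLCO1B1, a hepatic organic anion transporter, had 60, 84 and 195 counts (2.47 times, 1.90 to 3.22). Each of these was highest with polydatin and lowest in control.

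**Figure D5:**
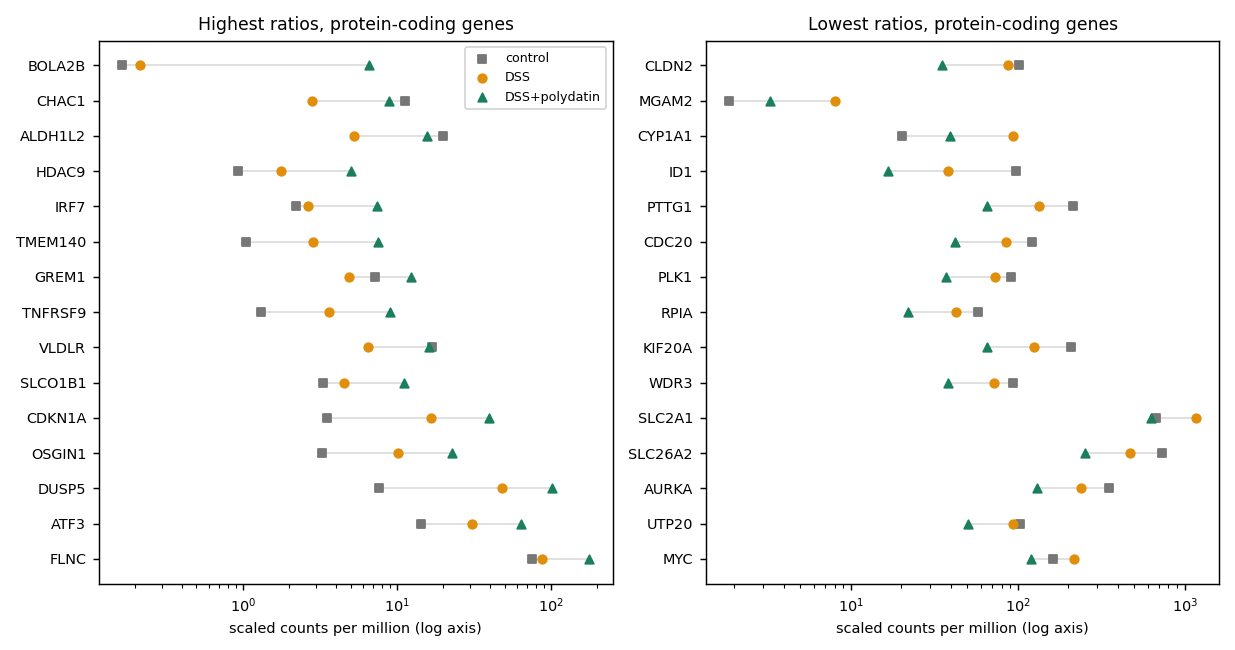
Scaled CPM (horizontal log axis) of the 15 highest (left) and 15 lowest (right) protein-coding genes by the naming rule in control (grey squares), DSS (orange circles) and DSS+polydatin (green triangles), 1 library each. CHAC1, ALDH1L2 and VLDLR with polydatin sit near control, as SLC2A1 does, whereas the mitotic genes PTTG1, CDC20, PLK1, KIF20A and AURKA are below both other libraries.

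Genes that do not code for protein held a larger share of calls than protein-coding genes. Of these 2149 genes, 8.89% were called higher and 4.19% lower, against 4.77% and 2.36% of protein-coding genes. In the lowest class of abundance over all genes (up to 1.86 CPM), 12.8% were called higher and 3.21% lower. In the next class (up to 4.06 CPM) the shares were 14.7% and 4.68%. Shares at matched abundance were not computed, so the part of abundance in this difference was not tested. Long intergenic RNAs (498) had 58 higher and 17 lower, and antisense RNAs (621) had 68 and 14, while 332 processed pseudogenes had 10 and 35. Because the strand setting of the counting is not given in the sources used here, antisense reads cannot be told from those of the gene opposite, and 69% of the genes compared overlap another gene. Long intergenic and antisense RNAs took 0.881% of control counts, 1.05% of DSS counts and 1.30% with polydatin. CASC19, a long RNA from the gene desert near MYC, was at 24.6 CPM in control, 71.5 in DSS and 146 with polydatin (2.04 times, 1.91 to 2.19), while MYC itself was lower. ENSG00000286966, which has no symbol in the table, had 1, 41 and 132 counts (3.42 times, 2.39 to 4.98). Among the 5 lowest, LHFPL3-AS2 was at 6.99, 11.6 and 5.10 CPM (0.440 times, 0.340 to 0.566) and PCAT14, a prostate cancer-associated transcript, at 10.1, 8.31 and 4.01 CPM (0.483 times, 0.359 to 0.645). SNHG4, a host of small nucleolar RNAs, was at 68.7, 71.1 and 39.3 CPM (0.553 times, 0.504 to 0.607). The snoRNA host list had 5 of 23 called lower (21.7%, against 2.63% of all genes) and none higher, with a median of −0.18. SNHG15 and SNHG3 were at 0.621 times (0.520 to 0.740) and 0.650 times (0.581 to 0.728). The pseudogenes HMGB1P6 (0.5 times, 0.424 to 0.587) and RPL41P1 (0.646 times, 0.612 to 0.681) share sequence with abundant parent genes, and HMGB1, chosen after its value was seen, was at 0.643 times (0.621 to 0.666).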

How the data were processed

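Total RNA from 3 Caco-2 cultures (control, DSS, DSS with polydatin) was sequenced, 1 library each. The authors deposited raw read counts per Ensembl gene with no normalization, and reads were aligned with HISAT2 to GRCh38, per the submitters' processing notes. Not given in the sources used here are how reads were counted, with which annotation and whether by strand, and the version of the aligner. The libraries carry no stated molecular identifiers, so a count is not a molecule and every interval or floor reflects counting error alone. Of 60664 identifiers, 60463 matched a gene symbol and 58396 a gene of GENCODE release 29 on GRCh38, from which types, coordinates, GC content and length were taken.

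Counts were scaled by TMM in edgeR 4.0.16 (R 4.3.3), with factors of 0.971 (control), 0.984 (DSS) and 1.05 (DSS with polydatin). The ratio of scaled counts and its exact 95% Clopper-Pearson interval were computed in Python 3.11.15 with scipy 1.17.1. Where a library had 0 counts, 0.5 was added to both. A gene was called at 1.5-fold with an interval excluding 1. With 1 library a side there is no test of the conditions and no p-value. The minimum of 20 counts equals 1.15 CPM with polydatin and 1.08 in DSS, and 3 counts equal 0.172 and 0.162 CPM. At the minimum, 107 genes had exactly 20 counts in the larger library (SD of log2 ratios 0.72) and 134 genes just outside had 19 (SD 0.76). The ratio step was tested on simulated counts.

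The members and the 55 gene lists were chosen with earlier results of these data known. Named genes are NFE2L2, KEAP1, SLC7A11 and GPX4, the 15 highest and 15 lowest protein-coding and 5 highest and 5 lowest other genes by the interval bound nearest to 1 at 5 CPM or more, and, per list, up to 3 called members each way, or the 2 with the most counts where none was called. The cell type markers are also named. Other genes were chosen after their values were seen. Some genes that the rule selects are not reported here. Motifs were searched in RefSeq promoters (GRCh38.p14), present for 10489 of the genes compared. The first entry for each symbol was used, and other start sites were not searched. The alternatives were total-count, DESeq2 1.42.0 and upper-quartile scaling, 3 other minimums, thinning, 2 added counts, protein-coding genes only, and removal of a lowess trend over GC content and length (statsmodels 0.14.6). Figures were drawn with matplotlib 3.10.9.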

Additional observations from a re-analysis of the deposited data

How the results depend on the processing

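The 4 counts of called genes (778 and 377 at 1.5-fold, 268 and 61 at 2-fold) stayed within 1.5 times under DESeq2 size factors, upper-quartile scaling, thinning of the DSS library to the smaller total, 2 added counts and removal of the GC and length trend. With a minimum of 10 CPM they were 233, 220, 29 and 8, and with a minimum of 100 counts the higher calls were 352 at 1.5-fold and 49 at 2-fold and the lower calls 11 at 2-fold, fewer genes being compared (9903 and 11068). With no minimum, 27640 genes were compared, and 407 were higher and 121 lower at 2-fold. Over protein-coding genes alone these were 166 and 28. With total-count scaling 230 genes were lower at 1.5-fold. No named gene that was called changed its direction under any alternative run. Of 122 named calls, 17 were lost with total-count scaling and 9 of 121 without the GC and length trend (named above), 5 after thinning (LRIG1, MLXIPL, MT2A, S100A3 and VIM) and 2 with DESeq2 size factors (MLXIPL and SLC16A3). The list medians that changed sign, the cause of which was not tested, were the snoRNA hosts (−0.18, but 0.15 over protein-coding hosts alone), TGF-beta, BMP and ID genes (0.15, but −0.06 at 100 counts and −0.06 at 10 CPM), prostaglandin and NADPH oxidase genes (−0.11, but 0.17 with no minimum and 0.03 at 100 counts) and metallothioneins (−0.38, but 0.01 at 100 counts and 0.01 at 10 CPM, from few members). Medians within 0.1 of 0 also changed sign. With total-count scaling they were 0.02 for iron handling, 0.05 for serine and folate genes and 0.01 for aminoacyl-tRNA synthetases. Without the GC and length trend they were −0.02 for endoplasmic reticulum chaperones, −0.03 for fatty acid genes, −0.11 for brush border genes and −0.05 for apolipoproteins. Keratins and S100 proteins were at −0.07 with no minimum, −0.01 at 100 counts and −0.07 at 10 CPM, and aryl hydrocarbon receptor targets at −0.14 with no minimum. Means over members differed in sign from the medians for serine and folate genes (0.06), fatty acid genes (−0.02), replication-dependent histones (−0.03), apolipoproteins (−0.09) and aryl hydrocarbon receptor targets (−0.17). DNA replication (0.00) and the MYC network (−0.00) lay at 0 and took either sign. No paired analysis was possible because each group has 1 library and the labels give no replicate numbers.

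At this depth counting error sets no useful bound on the spread between cultures, which nothing here measures. Genes near the minimum of 20 counts carry the widest intervals, and they hold most of the 2-fold calls: 156 of 268 higher and 37 of 61 lower lay in the 10% of genes with the lowest abundance. Both libraries compared received DSS, and a polydatin effect and a library effect cannot be told apart with 1 library each. Without a library given polydatin alone, an effect of polydatin that depends on DSS cannot be separated from one that does not. Between control and DSS, a DSS effect and a library effect cannot be told apart either.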

Other observations

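Some families outside the lists were looked at after their values were seen and are given as values only. Over all genes compared, 5.43% were called higher and 2.63% lower. RNA polymerase subunits had a median log2 ratio of −0.30 over 33 genes, with 29 below 0 and 4 called lower, against a median of −0.02 over all genes compared. The 4 were POLR1G and POLR1F of RNA polymerase I, at 0.527 times (0.435 to 0.635) and 0.663 times (0.587 to 0.748), POLR1B, and POLR3G of RNA polymerase III, which had 297 counts in control, 148 in DSS and 81 with polydatin. Genes of protein import into mitochondria had a median of −0.36 over 23, with 22 below 0 and 2 called lower, TIMM10 (0.664 times, 0.555 to 0.792) and TOMM5 (0.605 times, 0.417 to 0.870). High mobility group genes had a median of −0.33 over 10, with 3 called lower. HMGA2, a chromatin protein of fetal and tumour cells, was at 129 CPM in control, 78.6 in DSS and 44.2 with polydatin, 0.562 times DSS alone (0.514 to 0.613), and HMGB3 at 0.564 times (0.522 to 0.609). LIN28B, an inhibitor of let-7 processing, was at 35.9, 35.6 and 19.4 CPM, 0.544 times (0.476 to 0.621).

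Interleukins and their receptors had a median of 0.33 over 23 genes, with 18 above 0, 6 called higher and none lower. Besides IL1A and IL18 these were IL6R with 51 counts in control, 127 in DSS and 244 with polydatin (2.04 times, 1.64 to 2.55), IL15 with 3, 41 and 61 counts (1.58 times, 1.05 to 2.41), IL1R2 (1.53 times, 1.25 to 1.87) and IL12A (1.78 times, 1.09 to 2.96). Semaphorins had a median of 0.23 over 14, with 3 called higher and none lower, SEMA3B (1.71 times, 1.5 to 1.95), SEMA6A (1.63 times, 1.38 to 1.93) and SEMA6B (1.70 times, 1.06 to 2.78). HSPB8, a small heat shock protein outside the folding list, went against that list at 5.40, 28.7 and 59.7 CPM, 2.08 times DSS alone (1.87 to 2.31). VWF, a marker of endothelium, had 9, 22 and 68 counts, while PECAM1, another endothelial marker, was lower at 24.4, 16 and 9.52 CPM (0.594 times, 0.488 to 0.720), and CDH5 had 0, 3 and 2 counts.

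Zinc finger genes named ZNF, had a median of −0.07 over 397, with 3 called higher and 8 lower. Processed pseudogenes had a median of −0.21 over 332, with 239 below 0, and the 80 copies of ribosomal protein genes among them had a median of −0.20. Like BOLA2B, 2 more genes with near-identical copies had extreme ratios that cannot be assigned, RGPD6 with 58, 6 and 81 counts and TBC1D3D with 1, 1 and 27.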
